A study of Mus musculus with 16 samples.

Results

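The comparison described here set 4 libraries of a β-cell line labelled P2ry1 knockout against 4 libraries of the wild-type line, all taken after ivermectin. These 8 of the 16 mouse libraries were taken by their genotype and treatment labels. The similar depth and low liver transcripts of both groups were known when this comparison was chosen, so those traits are no added result. The cells are BetaTC6, a mouse line derived from an insulinoma and labelled as having a C57BL/6 background. All groups had 3 days of growth, a period in glucose-free buffer and a stimulation with 20 mM glucose that lasted 30 min. The 2 groups compared also received ivermectin during the stimulation. The other 8 libraries, 4 per line, received DMSO in its place and serve below as vehicle libraries that share no sample with the ivermectin comparison. The labels name neither the ivermectin dose, the way P2ry1 was edited, nor whether the edited line is 1 clone. They also do not say whether replicates are separate cultures, so p-values here measure the spread between these libraries. With 1 line per genotype, an effect of the P2ry1 edit and any other difference between the lines cannot be told apart.

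P2ry1 is a cell-surface receptor for extracellular ADP and ATP that couples to the G protein Gq. In β-cells, Gq signalling activates phospholipase C, releases calcium from the endoplasmic reticulum and adds to the insulin secretion that glucose sets off. Ivermectin is an antiparasitic drug that opens glutamate-gated chloride channels of invertebrates and, in mammals, can potentiate the ATP-gated channel P2rx4 and glycine and GABA receptors.

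The transcript level of the targeted gene did not separate the labels. P2ry1 (chr3:61002785-61008982, mm10) was at 87.9, 88.2, 92.1 and 104 CPM (counts scaled to equal library size) in the wild-type libraries and at 84.2, 92.5, 81.0 and 84.1 CPM in those labelled knockout. The ranges overlapped, and the log2 difference was -0.11 (SE 0.0927, edgeR adjusted p = 0.394). A short insertion or deletion need not alter a gene's read total, so the line is called knockout-labelled throughout. Library totals were alike in the 2 groups, 1361378 to 1971548 counts in wild type and 1575358 to 1886396 in the knockout-labelled line. With 3 counts as the limit that a 0 allows, an undetected gene could stand at 1.52 to 2.20 CPM, depending on the library; limits and intervals of this kind cover counting error only. The 10 listed markers of β-cells summed to 31578 to 36947 CPM in wild type and 33279 to 40299 CPM in the knockout-labelled line. Acinar, ductal, endothelial, macrophage, fibroblast, muscle and pancreatic polypeptide cell markers summed to at most 18.8 CPM in any of the 8 libraries. Hepatocyte markers summed to 796 to 1026 CPM and 948 to 1244 CPM, of which Ttr, which islet cells also express, made up 610 ± 48.0 and 877 ± 35.9 CPM (SD, n = 4 each). Wild-type replicate 4 stood apart from the other 3 for several genes, given in the closing section. Among them, Rn45s, a ribosomal RNA precursor, took 2.99% of its counts against 0.143 to 0.167% in the other 3 wild-type libraries.

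Of 10822 genes that passed the count filter, 3013 differed between the lines under ivermectin (27.8%, edgeR quasi-likelihood test, Benjamini-Hochberg adjusted p under 0.05). Of these, 1513 (14% of the genes tested) were higher in the knockout-labelled line and 1500 (13.9%) were lower. Most differences were modest: 2071 of the 3013 had an estimate under 1.5-fold, and 305 reached 2-fold or more, 94 higher and 211 lower. When the test itself asked for more than 1.5-fold, 185 genes passed, 47 higher and 138 lower. The 4 and 4 libraries did not overlap for 2738 of the tested genes (25.3%), and 2301 of those also passed the adjusted p.

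A small set of genes had at most a few counts per library in 1 line and was read in every library of the other. Under the rule of at most 3 counts in every library of one group and at least 5 CPM in every library of the other, 7 genes were near off in the knockout-labelled line and 1, Ecm1, in wild type. The promoters of 3 of them are shown first, 250 bases before to 50 bases after the annotated start (RefSeq, GRCm38.p6, the assembly of mm10), because they span the range of CpG content among these genes. Capitals mark each CG dinucleotide, the substrate of DNA methylation in mammals. Nkx2-4, a homeobox transcription factor of the NK2 family, has its promoter at chr2:147085296-147085595 on the minus strand. The Fxyd6 promoter, of a small regulator of the sodium pump, lies at chr9:45369935-45370234 on the plus strand. The promoter of Ecm1, which encodes a secreted matrix protein, lies at chr3:95739520-95739819 on the minus strand. The start used for each of the 3 windows lies within the full interval annotated for its gene.
Nkx2-4: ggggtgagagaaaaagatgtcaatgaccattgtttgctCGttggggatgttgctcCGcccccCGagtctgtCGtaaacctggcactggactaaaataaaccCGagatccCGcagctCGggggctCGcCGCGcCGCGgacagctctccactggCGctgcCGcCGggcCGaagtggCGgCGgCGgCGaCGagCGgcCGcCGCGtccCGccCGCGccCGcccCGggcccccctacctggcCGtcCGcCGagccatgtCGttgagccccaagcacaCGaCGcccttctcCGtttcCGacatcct
Fxyd6: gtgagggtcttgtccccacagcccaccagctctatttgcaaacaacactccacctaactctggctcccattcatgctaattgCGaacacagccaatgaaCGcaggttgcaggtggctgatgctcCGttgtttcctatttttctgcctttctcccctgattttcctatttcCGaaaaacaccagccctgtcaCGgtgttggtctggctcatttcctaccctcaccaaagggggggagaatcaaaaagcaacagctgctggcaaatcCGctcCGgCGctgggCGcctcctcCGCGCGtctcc
Ecm1: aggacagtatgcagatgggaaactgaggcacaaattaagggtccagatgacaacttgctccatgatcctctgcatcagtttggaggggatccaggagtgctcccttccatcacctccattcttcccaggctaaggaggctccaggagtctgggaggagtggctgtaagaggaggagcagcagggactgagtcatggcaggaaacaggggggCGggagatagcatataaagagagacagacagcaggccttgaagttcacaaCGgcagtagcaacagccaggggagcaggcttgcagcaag

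These windows held 38, 12 and 2 CG dinucleotides. Over the 11200 promoter entries of tested genes the median was 21, with 50% of entries between 13 and 30, and 99.5% of entries held at least 1. The entries of the 7 genes near off in the knockout-labelled line ranged from 5 to 38, so the group held both CpG-rich and CpG-poor starts. DNA methylation was not measured in these libraries.

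Nkx2-4 (chr2:147083337-147085439) had 21, 14, 15 and 7 counts in the wild-type libraries and 0 in all 4 of the knockout-labelled line. With 3 counts over the group as the limit that a 0 allows, the fall was at least 19.1-fold, and the exact 95% counting interval of the ratio, which also covers error in the wild-type counts, began at 15.1 (edgeR adjusted p = 2.9e-08). Its close relative Nkx2-2, the next tested gene on the chromosome, was not called (log2 difference -0.12, adjusted p = 0.367). Pdyn (chr2:129686549-129699938), the precursor of the dynorphin opioid peptides, had 47, 23, 22 and 37 counts in wild type and 0, 0, 0 and 1 in the knockout-labelled line. The ratio of the summed counts was 130, with an exact 95% counting interval of 22.9 to 5174 (adjusted p = 5.49e-10). Both tested neighbours of Pdyn were lower as well: Sirpa, a receptor that binds CD47, by -1.13 (adjusted p = 7.82e-08) and the predicted gene 4932416H05Rik by -0.98 (adjusted p = 0.00505, and 0.264 with the libraries thinned to the smallest total). Fxyd6 (chr9:45369470-45396159) went from 22, 23, 13 and 17 counts to 0, 0, 1 and 0, a ratio of 75.6 with an interval of 13.2 to 3025. The rule that chose these genes keeps their groups from overlapping, so the separation is no added result.

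The other 4 genes of the near-off set were Necab2, Moxd1, Sulf2 and 9530008L14Rik. Necab2 (chr8:119446719-119472640), a neuronal calcium-binding protein, held 75 counts over the 4 wild-type libraries and 3 over the 4 of the knockout-labelled line, a ratio of 25.2 with an interval of 8.30 to 125. Moxd1 (chr10:24223517-24302783), a monooxygenase-like protein, held 70 and 4, a ratio of 17.6 (interval 6.59 to 66.5). Sulf2 (chr2:166073899-166155683), which removes sulfate from heparan sulfate chains, held 45 and 7, a smaller ratio of 6.48 (interval 2.90 to 17.0). The predicted gene 9530008L14Rik (chr13:41763145-41847616) held 44 and 6, a ratio of 7.39 (interval 3.14 to 21.2). Kcnk1, a background potassium channel, met the rule except in 2 wild-type libraries that fell short of 5 CPM: its counts were 20, 17, 7 and 5 against 1, 0, 0 and 0, a ratio of 49.4 with an interval of 8.46 to 1990.

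Ecm1 (chr3:95734147-95739876) had 3, 3, 3 and 2 counts in wild type and 10, 11, 16 and 13 in the knockout-labelled line. It was thus counted in every wild-type library, and its rise was 4.51-fold, with an interval of 2.32 to 9.61. Its neighbour Tars2 (chr3:95739974-95756365), the mitochondrial threonyl-tRNA synthetase, lies 98 bases away, upstream on the same strand. Tars2 was at 31.0, 28.5, 40.4 and 29.1 CPM in wild type and at 113, 110, 140 and 158 CPM in the knockout-labelled line (log2 difference 2.01, SE 0.123, adjusted p = 5.47e-15). The adjacent pair thus rose together, and whether reads from Tars2 transcripts add to the count of Ecm1 was not tested. Of the 16 nearest tested neighbours of the 8 near-off genes, 2 were called in the same direction at 2-fold or more, Tars2 and Sirpa. Of the 16, 6 were called in either direction, where 27.8% of all genes were, and 13 had estimates within 1.5-fold.

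**Figure D1:**
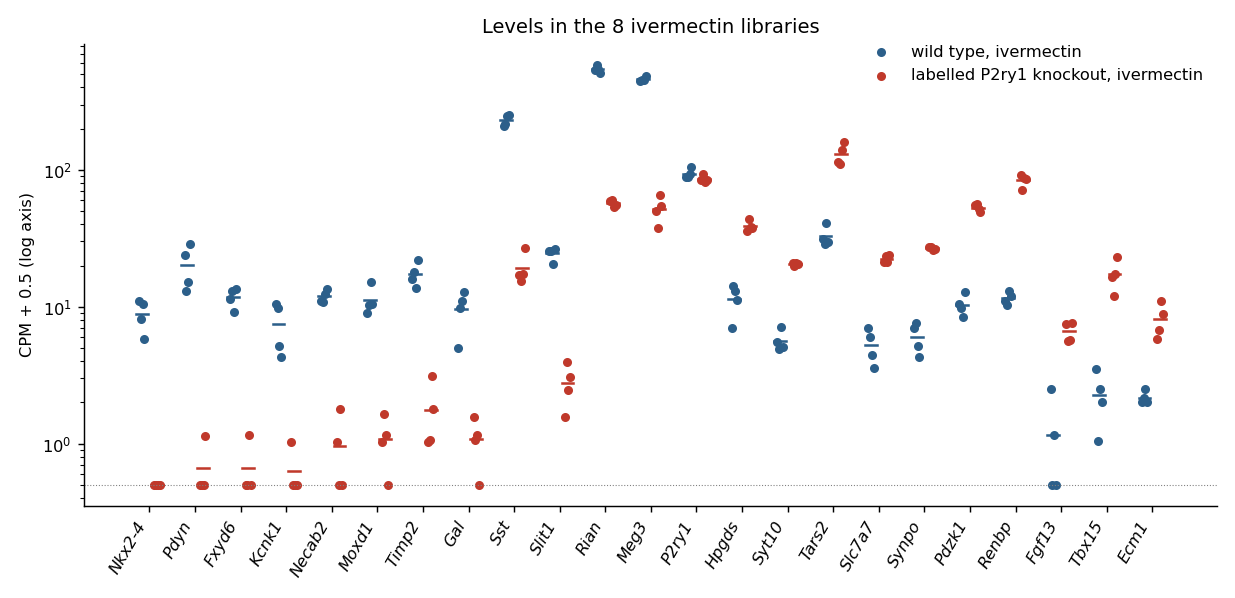
CPM plus 0.5 on a log axis for 23 genes in each of the 8 ivermectin libraries; dots are libraries, short lines are group means, and the dotted line marks 0 CPM. For P2ry1 the groups overlap, and for the other 22 genes every library of one line lies above every library of the other, as the rules that chose them required.

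The largest rises outside the near-off set ranged from a sugar-processing enzyme to developmental transcription factors. Renbp, which interconverts N-acetylglucosamine and N-acetylmannosamine in amino sugar metabolism, was at 10.5, 9.87, 12.6 and 11.5 CPM in wild type and at 91.1, 71.4, 86.9 and 85.4 CPM in the knockout-labelled line. That is a log2 difference of 2.92 (SE 0.148, adjusted p = 2.19e-17). Tbx15, a T-box transcription factor known from skeletal development, held 12 counts over the wild-type libraries and 111 over the knockout-labelled ones. Nkx2-1, the thyroid and lung relative of Nkx2-4, moved the other way from Nkx2-4, from 2.19 ± 1.80 to 10.8 ± 4.12 CPM (SD, n = 4 each). Fgf13, an intracellular regulator of sodium channels, had 5 counts over all wild-type libraries and 41 over the knockout-labelled ones. Further large rises on the log2 scale were those of Slc9a9, an endosomal sodium-proton exchanger (2.64), Pdzk1, a scaffold of membrane transporters (2.42), Synpo, an actin-binding protein (2.19), Slc7a7, an amino acid transporter subunit (2.13), Syt10 (1.95) and the prostaglandin D synthase Hpgds (1.83). The rule for these genes asked for groups that do not overlap.

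Among abundant genes, with a mean of at least 100 CPM, the somatostatin gene and 2 maternally expressed long RNAs fell most. Sst, the hormone of δ-cells, was at 207, 215, 248 and 250 CPM in wild type and at 16.6, 14.9, 17.0 and 26.5 CPM in the knockout-labelled line, a log2 difference of -3.62 (SE 0.119, adjusted p = 1.49e-23). The lowest wild-type library was far above the highest knockout-labelled one. In bulk RNA, fewer Sst-expressing cells and less Sst RNA per cell cannot be told apart. At lower levels, Gal, the neuropeptide galanin, fell by 3.72 from 9.17 ± 3.34 CPM, and Slit1, an axon guidance ligand, fell by 3.38 from 24.0 ± 2.80 CPM. Timp2, an inhibitor of matrix metalloproteases, fell by 3.72 from 16.9 ± 3.47 CPM. Of the abundant genes that rose, Oxtr, the oxytocin receptor and itself a Gq-coupled receptor, went from 209 ± 13 to 441 ± 11.3 CPM (SD, n = 4 each; log2 difference 1.08). Tm4sf4, a tetraspanin-like membrane protein, went from 160 ± 12.1 to 371 ± 24.1 CPM (log2 difference 1.22). Tcn2, the vitamin B12 carrier, rose by 1.22 and Uap1l1, a relative of an amino sugar enzyme, by 1.20, while Sez6l, a neuronal membrane protein, fell by 1.17. Oxtr and Sez6l were picked after their values were seen. Rn45s and Lars2 also met the abundance rule, with log2 differences of -2.04 and -1.71, but both rested on wild-type replicate 4. Without that library they were 0.50 and 0.36, with adjusted p of 0.115 and 0.215.

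The differences between the lines were not spread evenly over the genome. Position was taken from RefSeq for 10816 of the tested genes. The median log2 difference over all genes tested was 0.00. On chromosome 11 it was 0.23 over 886 genes: 337 (38%) rose, against 14% over all genes, and 37 (4.18%) fell. On chromosome 16 it was -0.22 over 340 genes: 103 (30.3%) fell, against 13.9% over all genes, and 4 (1.18%) rose. Chromosome 8 had a median of -0.16 over 598 genes, with 168 lower and 23 higher. For chromosome 4 it was -0.15 over 703 genes, with 175 lower and 29 higher. Chromosome 10 stood at 0.10 over 544 genes, with 123 higher and 40 lower. The medians of the other 15 chromosomes lay between -0.07 and 0.07.

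Each library showed this on its own. Taking each gene's log2 CPM against its mean over the 8 libraries, the chromosome 11 median ran from -0.10 to -0.09 in wild-type libraries and from 0.11 to 0.12 in those of the knockout-labelled line. On chromosome 16 the wild-type libraries were at 0.11 to 0.12 and the knockout-labelled ones at -0.12 to -0.09. The 2 groups were apart on 14 of the 20 chromosomes. The gene-level spread is wide beside these shifts: on chromosome 11 the middle 50% of genes ran from 0.03 to 0.43, and on chromosome 16 from -0.41 to -0.06. In the vehicle libraries, which share no sample with these, the medians were 0.22 for chromosome 11, -0.24 for chromosome 16, -0.13 for chromosome 8, -0.14 for chromosome 4 and 0.11 for chromosome 10. All 20 chromosome medians had the same sign in both treatments. DNA copy number was not measured in these libraries.

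**Figure D2:**
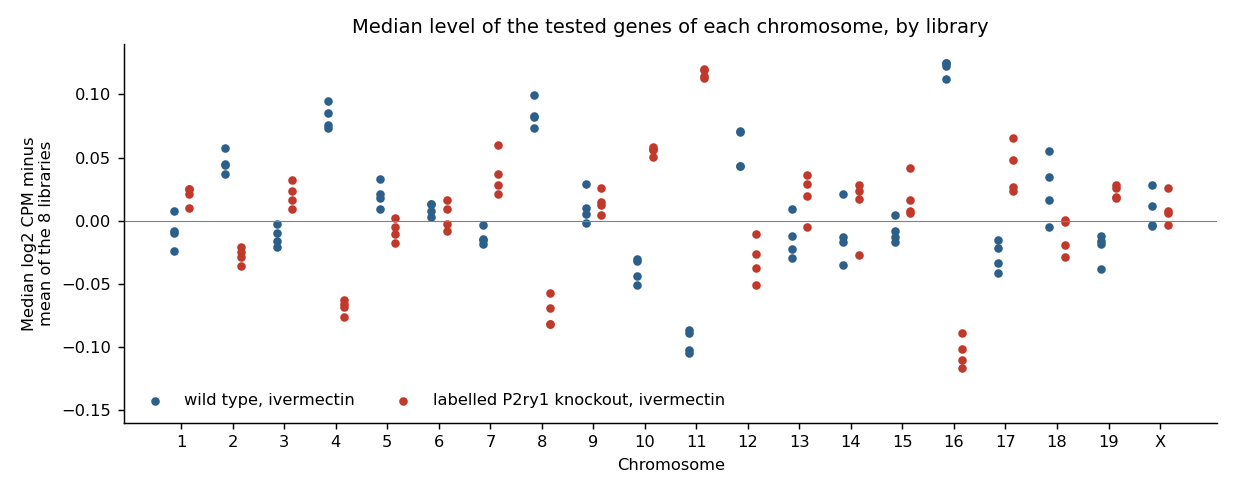
Each dot is 1 ivermectin library: the median, over the tested genes of a chromosome, of log2 CPM minus the mean of the 8 libraries. Libraries of the 2 lines lie farthest apart on chromosomes 11 and 16, with no overlap on chromosomes 4, 8 and 10 as well.

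Within chromosomes the shift was followed in runs of 50 neighbouring tested genes. On chromosome 11 every run was above 0, from 0.06 to 0.38, and on chromosome 16 every run was below 0, from -0.29 to -0.15. Several other chromosomes were not uniform. On chromosome 10 the largest step between adjacent runs of 50 genes fell between Tdg and Hcfc2, at 82650799 to 82699007. The 358 tested genes before it had a median of 0.16 and the 186 after it a median of -0.02, and the vehicle medians at the same point were 0.17 and 0.00. The lowest run of chromosome 10 lay after that step, at -0.16 between Ppp1r12a and Usp15, with -0.10 in vehicle. Chromosome 13 had a larger step, from a median of -0.04 over 238 genes to 0.16 over 151, with -0.05 and 0.13 in vehicle. The largest steps of chromosomes 17, 18 and 5, of 0.37, 0.28 and 0.27, also exceeded the 0.25 of chromosome 10. These steps were placed with the values in view and carry no test. On chromosome 2, whose overall median was -0.07, the lowest run reached -0.24 between Scn3a and Plekha3 (chr2:65457118-76697335), with -0.26 in vehicle. The lowest run of chromosome 8 was -0.32, between Ikbkb and Ppp1r3b. The set of chromosomes 4, 8, 11 and 16 held 876 of the 3013 calls, 29.1%, and 23.4% of the genes tested.

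**Figure D3:**
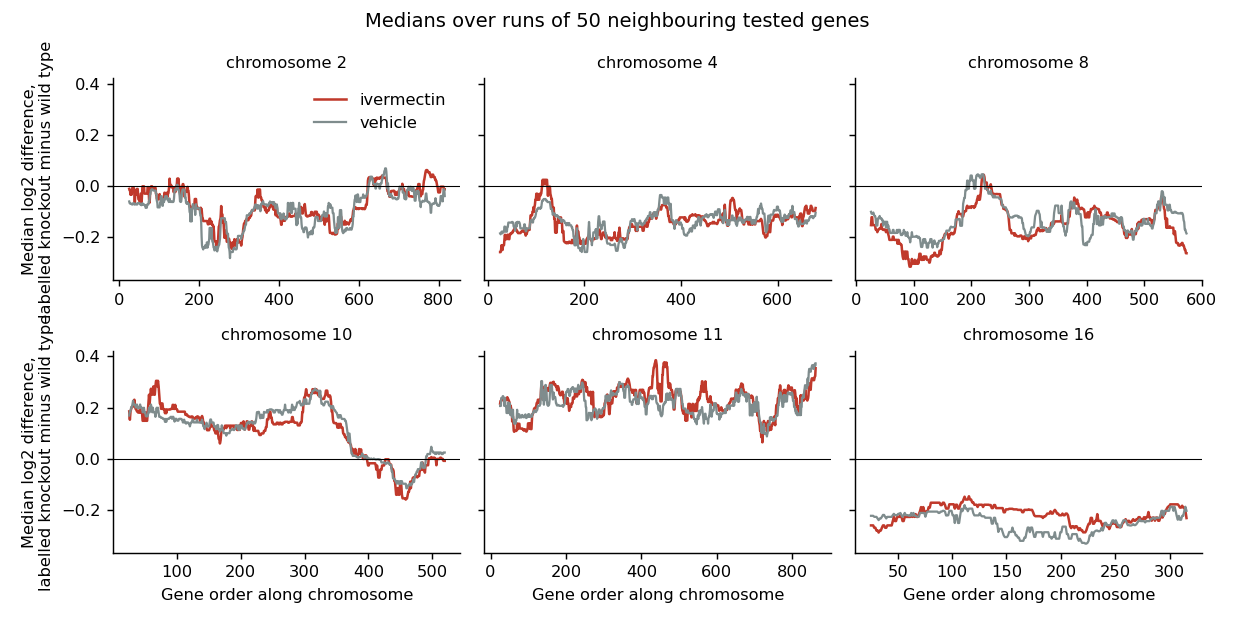
Median log2 difference, labelled knockout minus wild type, over runs of 50 neighbouring tested genes on 6 chromosomes, plotted against gene order, for ivermectin and vehicle. Chromosome 11 stays above 0 and chromosome 16 below 0 along their length. On chromosome 10 the runs drop after gene 358, where the median over genes is -0.02 and the lowest run is -0.16.

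Neighbouring genes fell together in the imprinted Dlk1-Meg3 region of chromosome 12. Imprinted genes are read from 1 parental copy, and here Dlk1 is expressed from the paternal copy and the non-coding RNAs Meg3, Rian and Mirg from the maternal copy. Rian was at 539, 584, 549 and 511 CPM in wild type and at 59.0, 59.4, 52.9 and 55.0 CPM in the knockout-labelled line (log2 difference -3.27, SE 0.0752, adjusted p = 2.19e-28). Meg3 was at 446, 455, 455 and 481 CPM and at 49.3, 37.1, 65.3 and 54.3 CPM (log2 difference -3.16, adjusted p = 4.22e-24). Mirg fell by 2.88, from 20.4 ± 1.83 to 2.69 ± 0.760 CPM (SD, n = 4 each). Dlk1, a membrane-bound Notch-family protein, fell by 0.46, from 272 ± 8.07 to 197 ± 14.7 CPM. All 4 tested members of 7 listed for the locus were called lower, where 13.9% of all genes were. The 3 maternal RNAs differed by far more than Dlk1, whose change from the others was not tested. Vehicle values were -3.27 for Rian, -3.07 for Meg3, -2.77 for Mirg and -0.58 for Dlk1.

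Imprinted genes outside that locus went in both directions. Of 26 tested members of the list, 5 rose (19.2%, against 14% over all genes) and 10 fell (38.5%, against 13.9%), with a median of -0.22. Igf2, a growth factor read from the paternal copy, was at 2191 ± 155 CPM in wild type and 3562 ± 150 CPM in the knockout-labelled line (log2 difference 0.70, SE 0.0496, adjusted p = 1.76e-13). Its clearance receptor Igf2r rose by 0.38. Nnat, a small membrane protein of the endoplasmic reticulum, rose by 0.50 and Commd1 by 0.59. Ndn, a MAGE-family protein, fell from 40.8 ± 6.10 to 11.8 ± 2.89 CPM (log2 difference -1.75). Usp29 fell by 1.28 and Sgce by 2.37, and Gnas, the stimulatory G protein subunit that links receptors to cyclic AMP, fell by 0.44 from 4050 ± 70.7 CPM.

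Turning to the receptor's own family, 8 of 25 listed purinergic genes passed the filter, with 2 higher and 1 lower (12.5%, near the 13.9% over all genes; 14% of all genes were higher). P2rx4, the channel that ivermectin acts on, was at 26.4 ± 2.79 and 31.8 ± 1.02 CPM, a log2 difference of 0.26 that did not pass (adjusted p = 0.206). P2ry6, a receptor for UDP, was at 10.1 ± 2.02 and 11.9 ± 4.01 CPM (adjusted p = 0.513). The adenosine receptors Adora1 and Adora2b rose by 0.75 and 1.10, at adjusted p of 0.0467 and 0.0465, and both lost the threshold with DESeq2 (0.131 and 0.117). The estimate for Adora2b ranged from 0.80 to 1.72 as single libraries were left out, highest without wild-type replicate 3. Entpd3, an enzyme that removes phosphates from extracellular ATP and ADP, fell from 47.7 ± 1.77 to 28.5 ± 5.22 CPM (log2 difference -0.73, adjusted p = 0.000312). Of 21 Gq and calcium-store genes, 2 rose and 2 fell, a share of 9.52% each way that is below the share over all genes. Atp2a3, a calcium pump of the endoplasmic reticulum, rose by 0.61, from 592 ± 26.1 to 905 ± 45.6 CPM. Prkca, a protein kinase C, fell by 0.42. Plcb4, a phospholipase C, rose by 0.43 (adjusted p = 0.0271) and Prkcb fell by 0.43 (adjusted p = 0.0235), and DESeq2 did not call either (0.0615 and 0.0779).

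Of 11 tested genes for known mammalian ivermectin targets and transporters, 2 rose and 1 fell, which is near the 27.8% called in either direction over all genes. Abcb1b, an efflux pump for which ivermectin is a substrate, was at 10.4 ± 0.646 CPM in wild type and 21.4 ± 2.01 CPM in the knockout-labelled line (log2 difference 1.04, adjusted p = 8.94e-05). The GABA receptor subunit gene Gabrq fell by 1.19. Glrb, the glycine receptor β subunit, was at 45.5 ± 2.24 and 50.2 ± 4.14 CPM and was not called (adjusted p = 0.38).

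Among 11 tested hormone genes, 2 rose (18.2%) and 5 fell (45.5%), beside 14% and 13.9% over all genes. Among these hormone genes, Ins2 had the highest level in both lines. Ins2 was at 18665, 21295, 20927 and 24679 CPM in wild type and 20233, 19356, 25569 and 22149 CPM in the knockout-labelled line (log2 difference 0.03, adjusted p = 0.794). Ins1 was at 3823, 3965, 4033 and 4400 CPM and at 3452, 3333, 4264 and 3913 CPM (-0.12, adjusted p = 0.183). Both insulin genes overlapped between the lines. With an offset for transcript length and GC content, described below, they became -0.24 and -0.29 and passed the threshold (adjusted p = 5.24e-09 and 1.85e-06). Because that offset was fitted to these same libraries, which value is nearer the true one was not tested. Iapp, the amyloid peptide secreted with insulin, rose from 5638 ± 411 to 7867 ± 430 CPM (log2 difference 0.48, adjusted p = 5.25e-09, and 0.27 with the offset). Cck, cholecystokinin, rose by 0.57, from 813 ± 86.8 to 1203 ± 114 CPM. Npy, neuropeptide Y, fell by 0.56, from 1845 ± 142 to 1249 ± 90.2 CPM, and Gcg, the glucagon precursor of α-cells, by 0.37. Per transcript length, in transcripts per library total of transcripts (TPM), the order of mean levels over the 4 wild-type libraries was Ins2 (124088), Iapp (16847), Npy (7953), Ins1 (7296), Cck (2473), Sst (856) and Gcg (477). In the knockout-labelled line Ins1 (6179 TPM) stood above Npy (5017 TPM), and Sst (64.8 TPM) stood below Gcg (339 TPM).

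The genes that package and process hormones were split. Of 17 granin and processing genes, 3 rose (17.6%, near the 14% over all genes) and 6 fell (35.3%, against 13.9%), with a median of 0.00. Chgb, chromogranin B of the secretory granule, was at 1186, 1216, 1259 and 1292 CPM in wild type and 727, 695, 763 and 699 CPM in the knockout-labelled line (log2 difference -0.78, SE 0.0508, adjusted p = 2.26e-14). Pam, which amidates peptide hormones, fell by 0.47 and Ptprn2, a granule membrane protein, by 0.36. Cpd, a carboxypeptidase that trims peptides, rose by 0.58, and Qpct, which forms N-terminal pyroglutamate, by 0.47. Cpd lies on chromosome 11 and Chgb on chromosome 2.

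Of 24 tested β-cell transcription factors, 10 fell (41.7%, against 13.9% over all genes) and 0 rose, with a median of -0.18. Nkx2-4, described above, is 1 of the 10. Mnx1, needed for β-cell development, went from 22.3 ± 5.76 to 8.12 ± 1.56 CPM (log2 difference -1.45). Myt1, a zinc finger factor of endocrine progenitors, went from 115 ± 7.92 to 73.3 ± 6.56 CPM (-0.66). Pdx1, the central regulator of insulin transcription, was at 302 ± 19.9 and 243 ± 21.2 CPM (-0.31, adjusted p = 0.000423), and the LIM factor Isl1 fell by 0.36. Glis3, a zinc finger factor, fell by 1.29 from a low level of 9.88 ± 3.00 CPM. Neurod1 (-0.23) and Nkx6-1 (-0.21) passed at adjusted p of 0.0219 and 0.0348, and both lost the threshold when each library was thinned to the smallest total (0.154 and 0.151).

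**Figure D4:**
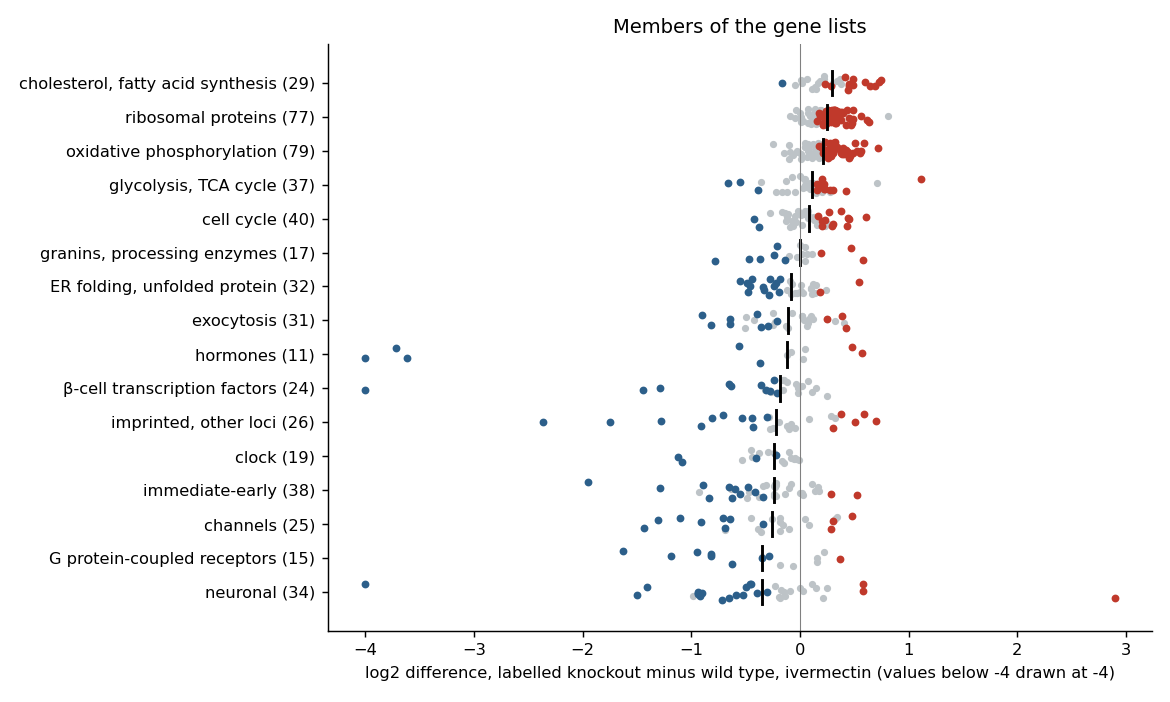
Log2 difference, labelled knockout minus wild type under ivermectin, of every tested member of 16 gene lists, with the number tested in brackets. Red and blue dots passed the threshold as higher and lower, grey dots did not, and black bars are list medians, which run from -0.35 for neuronal genes to 0.30 for cholesterol and fatty acid synthesis; 3 values below -4 are drawn at -4.

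Membrane receptors and channels were lower more often than higher. Of 15 other G protein-coupled receptors, 8 fell (53.3%, against 13.9% over all genes) and 1 rose (6.67%, against 14%), with a median of -0.35. Gipr, the receptor of the incretin GIP, was at 18, 24.1, 15.2 and 23.0 CPM in wild type and 5.90, 8.57, 5.88 and 5.18 CPM in the knockout-labelled line (log2 difference -1.63, SE 0.256, adjusted p = 7.77e-06). Adra2a, the adrenergic receptor that holds back insulin secretion, went from 198 ± 21.6 to 103 ± 9.12 CPM (-0.95). Chrm3, the muscarinic receptor that like P2ry1 couples to Gq, fell by 1.19. Sstr3, a somatostatin receptor, fell by 0.82, and Gabbr2, a subunit of the GABA-B receptor, by 0.63. Glp1r, the GLP-1 receptor, passed narrowly (-0.28, adjusted p = 0.0403) and did not with DESeq2 (0.0725). Gprc5b rose by 0.37 and was not called by DESeq2 (0.0833).

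Of 25 ion channel genes, 8 fell (32%, against 13.9% over all genes) and 3 rose (12%, near the 14% over all genes), with a median of -0.26. Kcnk16, a background potassium channel, fell by 1.31, and Cacnb2, a calcium channel β subunit, by 1.11. The sodium channel genes Scn3a and Scn9a, both in the low stretch of chromosome 2 named above, fell by 1.44 and 0.91. Abcc8, the sulfonylurea receptor of the ATP-sensitive potassium channel, rose from 616 ± 35.6 to 761 ± 25.8 CPM (0.30). Of 31 exocytosis genes, 8 fell (25.8%) and 3 rose (9.68%), beside the same 13.9% and 14%, with a median of -0.11 that became 0.00 with the length and GC offset. Syt11 (-0.90), Syt5 (-0.82) and Syt7 (-0.64) of the synaptotagmin family and the vesicle GTPase Rab3a (-0.65) were lower, and the granule-docking protein Sytl4 (0.42) was higher.

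Of 34 tested genes shared between neurons and endocrine cells, 17 fell (50%, against 13.9% over all genes), 3 rose and 14 were not called, with a median of -0.35. Elavl4, a neuronal RNA-binding protein, was at 88.9, 95.9, 103 and 87.3 CPM in wild type and at 37.0, 31.4, 26.1 and 37.5 CPM in the knockout-labelled line (-1.5, adjusted p = 2.47e-11). Its relative Elavl3 fell by 1.41. Mapt, the microtubule protein tau, fell from 138 ± 5.33 to 72.2 ± 4.86 CPM (-0.94), and Gad2, which makes GABA, by 0.93. Tubb3 fell by 0.59 and Th, the first enzyme of catecholamine synthesis, by 0.46. The next enzyme of that pathway, Ddc, rose by 0.58, and so did Stmn3, a microtubule regulator, by 0.58.

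In glucose handling most differences were small. Of 7 tested glucose entry genes, 2 rose and 1 fell (14.3%, near the 13.9% over all genes). Slc2a2, the main glucose transporter of mouse β-cells, was at 38.6 ± 5.05 and 42.6 ± 4.87 CPM (0.13, adjusted p = 0.489). G6pc2, a glucose-6-phosphatase subunit of islets, rose by 0.18 and G6pc3 by 0.37, and G6pc3 lost the call with libraries thinned to the smallest total (adjusted p = 0.0803). Of 37 glycolysis and TCA cycle genes, 11 rose (29.7%, against 14% over all genes) and 3 fell (8.11%, against 13.9%). The falls were Pdk1, a kinase that inhibits pyruvate dehydrogenase (-0.67), Pfkfb2 (-0.55) and Me1, malic enzyme (-0.39), and the rises included Idh1 (0.42) and Ogdh (0.27). The rise with the highest estimate was that of Pdk2, another kinase of the same family as Pdk1, at 2.00, 2.74, 7.95 and 2.30 CPM in wild type and 6.97, 7.43, 8.49 and 9.06 CPM in the knockout-labelled line (1.11, adjusted p = 0.0231). Wild-type replicate 3 lay among the knockout-labelled libraries, and the estimate was 1.73 without it. Pdk2 lost the call with DESeq2 (0.0539) and when any of wild-type replicates 1, 2 and 4 or knockout-labelled replicate 4 was left out (0.0585 to 0.112). With the length and GC offset, 5 rose and 4 fell, where 13.1% and 12.6% of all genes did.

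Lipid synthesis genes moved as a group. Of 29 tested genes of cholesterol and fatty acid synthesis, targets of the SREBP transcription factors, 13 rose (44.8%, against 14% over all genes) and 1 fell, with a median of 0.30. Scd2, a fatty acid desaturase, was at 1051, 1060, 1066 and 996 CPM in wild type and 1642, 1692, 1630 and 1574 CPM in the knockout-labelled line (log2 difference 0.65, SE 0.0502, adjusted p = 2.27e-12). Fdps, of the mevalonate pathway, rose by 0.73 and Mvk, mevalonate kinase, by 0.69. Fads1, a desaturase, rose by 0.49, and Insig1, the sterol-regulated retention factor of SREBP, by 0.48. The exception was Acly, which makes cytosolic acetyl-CoA (-0.17, adjusted p = 0.0104, and 0.0650 without knockout-labelled replicate 3). With the length and GC offset the counts were 18 higher and 1 lower, beside 13.1% and 12.6% over all genes.

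Of 40 cell cycle genes, 12 rose (30%, against 14% over all genes) and 2 fell (5%, against 13.9%), with a median of 0.08. The rises were Ccnd2, cyclin D2 (151 ± 10.3 to 229 ± 8.30 CPM, 0.61), the mitotic kinases Cdk1 (0.43) and Aurka (0.45), and Top2a, a topoisomerase of dividing cells (0.27), with 8 others. The falls were Ccne2, cyclin E2 (-0.42), and Cdkn1a, the p21 inhibitor of cyclin-dependent kinases (-0.38). With the length and GC offset 13 rose and 6 fell, against 13.1% and 12.6% over all genes.

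Endoplasmic reticulum folding and unfolded protein response genes were lower more often than higher. Of 32 tested, 13 fell (40.6%, against 13.9% over all genes) and 2 rose (6.25%, against 14%), with a median of -0.08. Hyou1, a large chaperone of the endoplasmic reticulum, fell from 1398 ± 79.7 to 954 ± 24.7 CPM (-0.55, adjusted p = 6.38e-11). The chaperone Hspa5 fell by 0.24 from 2779 ± 125 CPM, its partners Dnajb9 and Sdf2l1 by 0.46 and 0.44, and the disulfide isomerase Pdia4 by 0.33. Ero1l, which reoxidizes disulfide isomerases, rose by 0.54 and the lectin chaperone Canx by 0.19.

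Of 19 clock genes, 4 fell (21.1%, against 13.9% over all genes) and 0 rose, and all 19 estimates were below 0, with a median of -0.23. Per2, a repressor of the core clock loop, was at 40.0, 38.4, 35.8 and 36.7 CPM in wild type and at 17.2, 14.9, 17.6 and 22.0 CPM in the knockout-labelled line (-1.09, SE 0.15, adjusted p = 7.92e-07). Hlf (-1.12) and Tef (-0.40), clock-output factors of the bZIP family, also fell, and Tef lost the call without wild-type replicate 1 (0.0583) and with thinning (0.114). Nr1d2, a nuclear receptor of the clock, passed at 0.0428 (-0.22) and did not with DESeq2 (0.0897).

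Immediate-early genes respond to stimulation within minutes. Under ivermectin 11 of 38 tested genes were lower in the knockout-labelled line (28.9%, against 13.9% over all genes) and 2 higher (5.26%, against 14%), with a median of -0.24. In vehicle the median was 0.00, with 2 lower and 5 higher (10.8% and 9.89% over all genes), and the difference between these medians was not tested. Sik1, a kinase induced by cyclic AMP, was at 12, 10.4, 17.2 and 18.4 CPM and at 3.22, 2.86, 3.92 and 4.53 CPM (-1.95, adjusted p = 3.61e-06). Egr1, a zinc finger factor induced by MAP kinase signalling, was at 232, 393, 353 and 391 CPM in wild type and 246, 230, 224 and 229 CPM in the knockout-labelled line. Wild-type replicate 1 lay among the knockout-labelled libraries and the other 3 wild-type libraries above them (-0.55, adjusted p = 0.000295). In vehicle Egr1 differed the other way, by 0.67, at 118 ± 27.6 CPM in wild type and 188 ± 24.8 CPM in the knockout-labelled line. With Alb, the albumin gene, as a covariate, Egr1 was not called for the difference between the 2 treatments. That covariate overlaps with the contrast, as described below. Without the covariate this difference passed its own test (-1.22, SE 0.179, adjusted p = 0.000353). For Sik1 and Nr4a1, an orphan nuclear receptor (-0.84 under ivermectin, -0.46 in vehicle), it did not (adjusted p = 0.922 and 1). Fosl2 (-0.66), a component of AP-1, and Dusp1 (-0.48), a MAP kinase phosphatase, were lower under ivermectin, and Nab1, a corepressor of Egr proteins, was higher (0.52).

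Of 38 tested matrix and adhesion genes, 10 rose (26.3%, against 14% over all genes) and 11 fell (28.9%, against 13.9%). In the fit with the length and GC offset these counts became 15 and 10, where 13.1% and 12.6% of all genes rose and fell. Cdh23, a long cadherin, fell by 2.33 and Cdh1, E-cadherin of epithelial junctions, from 12.6 ± 3.35 to 5.85 ± 0.997 CPM (-1.08). Cdh13, a cadherin anchored by a lipid tail, rose by 1.58, and the laminin chains Lama4 and Lamb1 by 1.49 and 0.85. Among 26 developmental transcription factors, 4 rose (15.4%) and 5 fell (19.2%), near the shares over all genes. Sox12 (-1.69) and Six3 (-1.15) fell and Pou4f1 (1.01) rose. In amino sugar metabolism, 4 of 16 genes rose (25%) and 1 fell (6.25%). Beside Renbp these were Gnpda1 (0.75), which returns glucosamine phosphate to glycolysis, the lysosomal sialidase Neu1 (0.57) and Amdhd2 (0.55), while Gfpt1, which starts the hexosamine pathway, fell by 0.34. Of 26 redox and hypoxia genes, 5 rose (19.2%) and 6 fell (23.1%), among them Gpx4, which protects lipids from oxidation (0.53), Srxn1 (-0.56) and Egln3, an oxygen sensor (-0.91). With the length and GC offset, 1 rose and 9 fell, beside 13.1% and 12.6% over all genes. In antigen presentation, 3 of 14 rose (21.4%) and 2 fell (14.3%). H2-T23 (1.37) is 1 of a family of close copies, and its value is uncertain.

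Ribosomal protein and oxidative phosphorylation genes rose in large numbers, and transcript length moved with that result. Of 77 ribosomal protein genes, 49 rose (63.6%, against 14% over all genes) and 0 fell (13.9% over all genes), with a median of 0.25. Rpl23 went from 440 ± 47.4 to 650 ± 64.3 CPM (0.56) and Rps27a from 512 ± 71.5 to 792 ± 84.4 CPM (0.63), and both lie on chromosome 11. Processed pseudogenes share reads with this family, so single values are uncertain. Of 79 oxidative phosphorylation genes, 37 rose (46.8%) and 0 fell, beside the same 14% and 13.9%, with a median of 0.21. Uqcr10, of complex III, rose by 0.72 and Cox7c, of complex IV, by 0.59.

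Both lists are made of short transcripts, with median lengths of 703 and 679 bases. Over all tested genes split into 5 equal bins by transcript length, the median log2 difference was 0.17 for the shortest bin, then 0.06, -0.01, -0.07 and -0.15 for the longest. The vehicle medians were 0.13, 0.04, 0.00, -0.05 and -0.10. In the shortest bin the wild-type libraries had medians of -0.15 to -0.01 against the mean of the 8, and the knockout-labelled ones 0.01 to 0.17. The groups did not overlap, but the libraries within each spread widely. The 645 other tested genes under 1000 bases, outside both lists, had a median of 0.24. Of them, 219 were higher and 23 lower, where 14% and 13.9% of all genes were. When the fit was given an offset for length and GC content, 16 ribosomal protein genes rose and 10 fell (median 0.03), and 15 oxidative phosphorylation genes rose and 8 fell (median 0.02). Over all genes 13.1% rose and 12.6% fell in that fit, so the falls were near or below the share over all genes. Both medians stayed above 0 but came close to it. The offset was fitted to these same libraries, so it also takes out any difference between the lines that short genes share. The part of RNA quality or library preparation in the length trend was not tested. The chromosome medians with the offset were 0.23 for chromosome 11, -0.23 for chromosome 16, -0.17 for chromosome 8, -0.16 for chromosome 4 and 0.12 for chromosome 10.

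**Figure D5:**
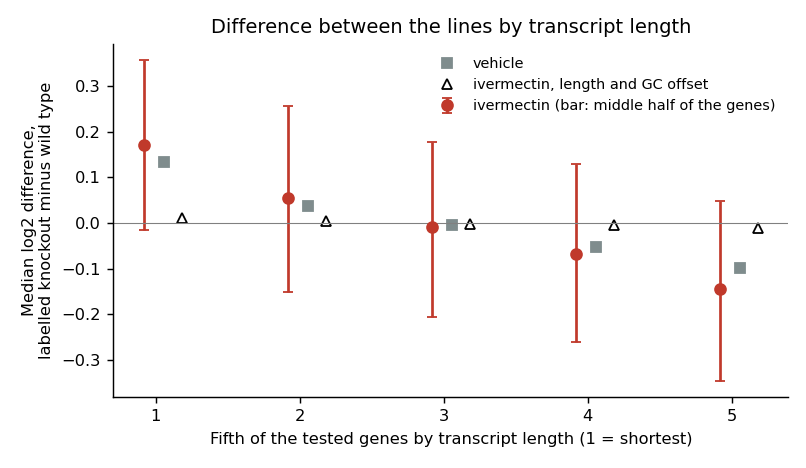
Median log2 difference, labelled knockout minus wild type, for 5 equal bins of the tested genes by transcript length. Circles are ivermectin with bars over the middle 50% of genes, squares are vehicle, and triangles are ivermectin with the length and GC offset. Circles fall from 0.17 to -0.15. Triangles stay between -0.01 and 0.01 by construction, because the offset was fitted to length in these same libraries.

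The vehicle libraries give a separate set of samples for the same 2 lines. Their depth differed by line, with totals of 893292 to 1065004 counts in wild type and 1744352 to 2013484 in the knockout-labelled line. In vehicle, 2244 genes passed (20.7%), a count that dropped to 396 with Alb as a covariate. Mean Alb was itself far higher in wild-type than in knockout-labelled vehicle, so that covariate overlaps with this contrast. Of the 2244, 1629 had also passed under ivermectin in the same direction, and 5 passed in opposite directions. The 1629 are 54.1% of the ivermectin calls and 72.6% of the vehicle calls. Of the 3013 ivermectin calls, 2919 (96.9%) had an estimate of the same sign in vehicle. All 8 near-off genes passed in vehicle in the same direction. Nkx2-4 was at 11.2 ± 1.5 CPM in wild-type vehicle and 0.125 ± 0.251 CPM in the knockout-labelled vehicle libraries, and Pdyn at 17.2 ± 5.93 CPM and 0 in all 4. The log2 difference was -5.31 for Fxyd6, -4.60 for Necab2 and -2.93 for Moxd1 in vehicle. It was -1.64 for Sulf2, -1.63 for 9530008L14Rik and 1.47 for Ecm1, against -2.60, -2.78 and 2.12 under ivermectin, and these changes with treatment did not pass their own test (adjusted p = 1 for each). Sst was at 218 ± 15.4 and 15.4 ± 2.60 CPM, and Renbp at 8.15 ± 2.46 and 82.3 ± 9.03 CPM.

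A test of whether the line difference itself changed with treatment passed for 24 genes (0.222%), 23 with a larger value under ivermectin and 1, Egr1, with a smaller one, and 554 had an unadjusted p under 0.05. The count was 6 with the hepatocyte markers left out. As single libraries were left out it ran from 8, without knockout-labelled ivermectin replicate 1, to 48, without wild-type ivermectin replicate 1. With Alb as a covariate it was 0, so none of the differences between treatments given below passed there. Mean Alb was itself highest in wild-type vehicle, so this covariate overlaps with the contrast tested. Whether the calls lost with it rest on liver transcripts or on lost power cannot be told apart. Of the 24, 14 were in the hepatocyte marker list. Alb, the albumin gene, was at 172, 64.1, 57.7 and 112 CPM in wild type and 144, 28.0, 71.2 and 29.8 CPM in the knockout-labelled line under ivermectin, where the groups overlapped (-0.56, adjusted p = 0.256). In vehicle it was at 579 ± 278 CPM in wild type and 38.9 ± 16.1 CPM in the knockout-labelled line. Apoa1, an apolipoprotein of high-density lipoprotein, had log2 differences of 0.01 under ivermectin and -3.82 in vehicle (difference 3.83, SE 0.493, adjusted p = 3.89e-05). Over the 25 hepatocyte genes the median was -0.19 under ivermectin, with 1 higher (Ttr, 0.53) and 1 lower (Tat, -1.97). That is 4% each way, below the 14% and 13.9% over all genes. In vehicle the median was -3.64, with 24 lower, where 10.8% of all genes were. The summed level of the 25 was 1431 to 3171 CPM in wild-type vehicle and 832 to 1088 CPM in the knockout-labelled vehicle libraries. Members of liver gene families share reads between copies, so single values are uncertain. Outside that list, Scd1, a desaturase, was higher under ivermectin (0.74, adjusted p = 0.00118) and lower in vehicle (-0.61), and the difference passed (1.35, adjusted p = 0.00205). Apoe had log2 differences of -0.75 and -3.31, and its ivermectin value lost the threshold with DESeq2 (0.188).

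Whether the lines used different transcripts of the same gene was asked from the abundance-weighted transcript length of 1964 genes with 2 or more listed transcripts. After adjustment 0 genes passed (0%, limma), the smallest adjusted p was 0.103, and 146 had an unadjusted p under 0.05. Without knockout-labelled replicate 3, 2 genes passed. With every library in the fit, no difference in transcript use was detected for these genes.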

How the data were processed

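RNA sequencing of 16 libraries of BetaTC6 cells was deposited, 4 for each combination of line and treatment. Per the submitters' processing notes the tools were bcl2fastq, STAR 2.7.2b, RSEM 1.3.3 and DESeq2 1.32.0, with build mm10. Per the labels' protocols, polyA RNA was made into directional libraries and read as pairs of 42 bases. Whether counting used strand is not given in the sources used here, so antisense and overlapping genes are uncertain. The deposited per-library tables give RSEM expected counts, TPM, FPKM and abundance-weighted transcript length, as the file headers name them. The authors' deposited table of raw counts differed from the rounded expected counts by more than 1 for 0 genes and served as an alternative. FPKM and the authors' normalized counts were not used, nor were tables of other material.

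Expected counts were rounded and tested in edgeR 4.0.16 (quasi-likelihood, TMM, R 4.3.3), with 1 mean per group over all 16 libraries, after a filter on low counts (minimum 10, total 15). The threshold was a Benjamini-Hochberg adjusted p of 0.05 over all genes tested. Differences are log2, knockout-labelled minus wild type; SE is the difference divided by the square root of F. CPM of single genes use TMM-adjusted library totals, and marker sums and shares the plain totals, 893292 to 2013484 counts over the 16 libraries. Transcript length was tested with limma 3.58.1 on log2 length. DESeq2 1.42.0, other scalings and filters, thinning and leaving out libraries were alternatives. The length and GC offset was added after seeing the data. It used a spline of each library's log2 counts on length and GC, with GC known for 10773 of 10822 genes. Positions and promoters came from RefSeq (GRCm38.p6).

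Replicate numbers were not used as pairs in the main fit. Named genes were the 12 largest rises and falls, the near-off genes, the 8 largest differences at 100 CPM or more, up to 6 differing between treatments and up to 4 per list. Other named genes were picked after their values were seen. The members, lists and comparisons were chosen with earlier results of these data known. Tests were checked on simulated counts. A few genes that the naming rule would include are not reported here.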

Additional observations from a re-analysis of the deposited data

Results flagged for a closer look

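Among 362 groups of 4 libraries examined, 26 held a library far from the other 3, where chance gives about 1 in 20, or 18.1. In wild type under ivermectin, replicate 4 was apart for Rn45s (31113 CPM by normalized library size, 2.99% of counts) and Lars2 (1544 CPM normalized, 1482 CPM by total counts). It was also apart for Adra2a (166 CPM), Aurka (112 CPM), Prkca (93.4 CPM) and Egln3 (21.4 CPM). Replicate 1 was apart for Scd1 (118 CPM), replicate 2 for Gpx4 (153 CPM) and for the number of genes with a count (14144), and replicate 3 for Slit1 (19.9 CPM) and Pdk2 (7.95 CPM). In the knockout-labelled line, replicate 3 was apart for Oxtr (425 CPM), Mnx1 (10.5 CPM), Dnajb9 (129 CPM), Neu1 (201 CPM) and Fxyd6 (0.653 CPM). Replicate 4 was apart for G6pc3 (82.2 CPM), Dusp1 (58.9 CPM), H2-T23 (14.9 CPM), Pdyn (0.647 CPM) and the share of Rn45s (0.367%). Replicate 2 was apart for Syt7 (50.3 CPM) and Fosl2 (30.3 CPM), and replicate 1 for Kcnk1 (0.536 CPM). For Pdyn, Fxyd6 and Kcnk1 this is 1 count in 1 library against 0 in the others.

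The line difference itself changed with treatment, by the interaction test in edgeR, for 5 genes named here. Ivermectin minus vehicle was -1.22 for Egr1, 3.34 for Alb, 3.83 for Apoa1, 2.57 for Apoe and 1.35 for Scd1. With Alb as a covariate none of the 5 passed: the test then called 0 genes, with 368 at an unadjusted p under 0.05. Alb is itself 1 of the 5, so that covariate overlaps with the contrast tested. For Alb, Apoa1 and Apoe the hepatocyte marker sum moved with the result, and its part in it was not tested.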

How the results depend on the processing

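Of 161 named genes past the threshold, 141 stayed past it in the same direction under every alternative but the 1.5-fold test, which 51 passed. Of 1508 list counts under the alternatives, 1349 stayed within 1.5 times the main count. The ivermectin count of 3013 became 185 with the 1.5-fold test and 1935 with libraries thinned to the smallest total, and ranged from 2430 to 3082 as single libraries were left out. The vehicle count of 2244 became 237 with the 1.5-fold test and 396 with Alb as a covariate (1845 to 2335 leaving out libraries). The count of 24 differing between treatments was the least stable. It was 12 with the 1.5-fold test, 0 with Alb as a covariate (368 at an unadjusted p under 0.05), 15 with DESeq2, 6 without hepatocyte markers, 4 at a mean of 50 counts, 82 with no filter and 14 with thinning. Leaving out libraries gave 8 (without knockout-labelled ivermectin replicate 1) to 48 (without wild-type ivermectin replicate 1). With a replicate block the counts were 3045 under ivermectin and 47 between treatments. Same-numbered libraries correlated at 0.03 to 0.12 under ivermectin and at -0.04 to 0.06 in vehicle. The correlation was highest with the own number for replicate 1 under ivermectin and for replicates 1, 2 and 4 in vehicle. Transcript length calls ranged from 0 to 2. With the length and GC offset the chromosome medians were -0.16 for 4 and 0.12 for 10; leaving out libraries gave -0.16 to -0.14 for 4, -0.16 to -0.14 for 8, 0.10 to 0.12 for 10, 0.23 to 0.24 for 11 and -0.23 to -0.20 for 16.

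Signs reversed as follows, and the cause was not tested. Ins2 was -0.24 with the offset, -0.053 without knockout-labelled replicate 3 and -0.028 without wild-type replicate 1, and at most 0.11 (without wild-type replicate 4). Alb was 0.020 with Alb as a covariate, by construction. Apoa1 was -0.17 with the offset, -0.24 with thinning, -0.37 without knockout-labelled replicate 1, and -0.22, -0.06 and -0.03 without wild-type replicates 2, 3 and 4, with a highest value of 0.46 without wild-type replicate 1. Rn45s ranged from -2.44 to 0.50 and Lars2 from -2.08 to 0.36 as libraries were left out, both positive without wild-type replicate 4. Among genes of a few counts, leaving out 1 library moved Fgf13, Fxyd6, Kcnk1, Necab2 and Pdyn by over 1.5-fold. In that order the log2 ranges were 2.48 to 4.38, -7.14 to -5.29, -6.50 to -4.70, -5.38 to -4.04 and -7.93 to -6.08. The part of depth in these moves was not tested.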
